A study of Mus musculus with 16 samples.

Results

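The 10 genes described here are Tcf7l2, Lef1, Prkcd, Ramp3, Slc17a6, Shox2, Zic1, Plekhg1, Synpo2 and Tnnt1, which are known for much higher expression in the thalamus than in the hippocampus. They were chosen by name from the 49315 genes of the count table, and 9 of them were among the 17469 genes that passed the filter on low counts, Shox2 being the exception. Libraries were made from the hippocampus of wild type and Kcna1 knockout mice that received a standard or a ketogenic diet, with 4 libraries in each of the 4 groups. Kcna1 encodes the potassium channel subunit Kv1.1, whose loss causes seizures, and the ketogenic diet is rich in fat and poor in carbohydrate. Strain, age, sex, the knockout allele, the diets' composition and duration and the dissection were not given in the sources used here. Levels are counts scaled to a common effective library size (CPM), and a difference is called where the adjusted p of edgeR's quasi-likelihood test is under 0.05 over all tested genes. In bulk tissue, fewer cells of a type and less RNA per cell cannot be told apart.

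The thalamus lies directly beneath the dorsal hippocampus, so a hippocampal dissection can carry some of it. Its relay neurons depend on the transcription factor Tcf7l2 and package glutamate with the transporter encoded by Slc17a6, whereas hippocampal pyramidal and granule cells mainly use another vesicular glutamate transporter. None of the 10 genes is made by thalamic neurons alone. Tcf7l2 is also made by oligodendrocytes as they differentiate, Lef1 by endothelial cells and immature neurons, Prkcd by some interneurons and microglia, Zic1 by septal and meningeal cells, and Slc17a6 by other subcortical neurons.

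Total counts ranged from 13440230 to 22309504. Kcna1 lay between 107 and 130 CPM in the 8 wild type libraries and between 43.4 and 47.2 CPM in 7 of the knockout libraries. The library labelled knockout KC888LL, under the standard diet, held 82.0 CPM of Kcna1, between the 2 ranges, and it is kept under its label. Every direction involving the knockout under the standard diet therefore includes a library whose Kcna1 goes against its label. Genes of the dentate gyrus, CA1 and CA3 were detected in every group, with lowest summed levels of 322, 348 and 273 CPM, respectively. The lowest CA1 and CA3 sums were both those of KC872RL, a library of the knockout under the standard diet that returns below. Among knockout libraries under the standard diet KC888LL was highest for CA1, CA3 and the dentate gyrus, at 474, 354 and 468 CPM. In knockout versus wild type under that diet all 5 CA1 and all 5 CA3 genes were below 0, with medians of -0.21 and -0.28, and 0 of them were called. Their part in the results below was not tested.

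Promoter sequences are shown for Shox2 and Zic1, because these genes divided the libraries most sharply and in different ways. The windows are RefSeq sequence of build GRCm38.p6 directly upstream of the annotated starts, at chr3:66981772-66982021 for Shox2 and chr9:91365811-91366018 for Zic1. Both are on the minus strand and are written 5′ to 3′ along the gene, and capitals mark CCAAT, a common promoter motif.
Shox2: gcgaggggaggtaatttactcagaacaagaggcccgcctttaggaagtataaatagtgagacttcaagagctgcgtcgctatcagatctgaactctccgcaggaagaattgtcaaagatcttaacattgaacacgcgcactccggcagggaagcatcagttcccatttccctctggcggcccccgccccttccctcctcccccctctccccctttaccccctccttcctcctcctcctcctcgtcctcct
Zic1: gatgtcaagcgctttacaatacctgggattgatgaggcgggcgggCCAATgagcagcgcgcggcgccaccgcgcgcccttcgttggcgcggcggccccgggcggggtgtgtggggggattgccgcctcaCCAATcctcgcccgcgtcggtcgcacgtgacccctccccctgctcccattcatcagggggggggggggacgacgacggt
CCAAT occurred 2 times in the Zic1 window and 0 times in that of Shox2 with both strands searched, in windows of 208 and 250 bases. Of the 16 windows of 250 bases of the 10 genes 2 held it, as did 33.8% of all such windows. The letters CTTTGAT, a core motif of the TCF and LEF proteins that Tcf7l2 and Lef1 encode, were searched on both strands in the 16 windows of the 10 genes. They occurred in 0 of these and in 3.21% of the 32851 windows of all genes. These counts describe letters in the windows and not binding.

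Relative to transcript length, Prkcd was the most abundant of the 10 and Shox2 the least. Mean levels over the 16 libraries in CPM per kilobase of annotated exon were 5.99 ± 2.80 for Prkcd (SD, n = 16), 3.87 ± 3.50 for Zic1, 3.05 ± 0.557 for Plekhg1, 2.42 ± 0.918 for Slc17a6 and 1.61 ± 0.800 for Ramp3. The lower 5 were Tcf7l2 at 0.646 ± 0.373, Synpo2 at 0.546 ± 0.236, Tnnt1 at 0.527 ± 0.178, Lef1 at 0.353 ± 0.0894 and Shox2 at 0.133 ± 0.279 CPM per kilobase. Of neighbours in this order, Ramp3 and Tcf7l2 were the only pair whose means lay further apart than the larger of their SDs.

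The genes did not form a single axis across libraries. KC872RL, a knockout library under the standard diet, was the highest of the 16 for 6 of the 10 genes and among the highest 4 for 8. KC888LL was among the highest 4 for 9 genes and was itself the highest for Slc17a6. These 2 libraries exceeded all other 14 for Tcf7l2, Ramp3, Slc17a6 and Shox2. KC894RLL, a wild type library under the standard diet, was the highest for Prkcd and Zic1, and KC846L, a wild type library under the ketogenic diet, for Plekhg1. At the other end, the knockout libraries KC913RR and KC934R under the ketogenic diet were each among the lowest 4 for 6 genes.

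**Figure D1:**
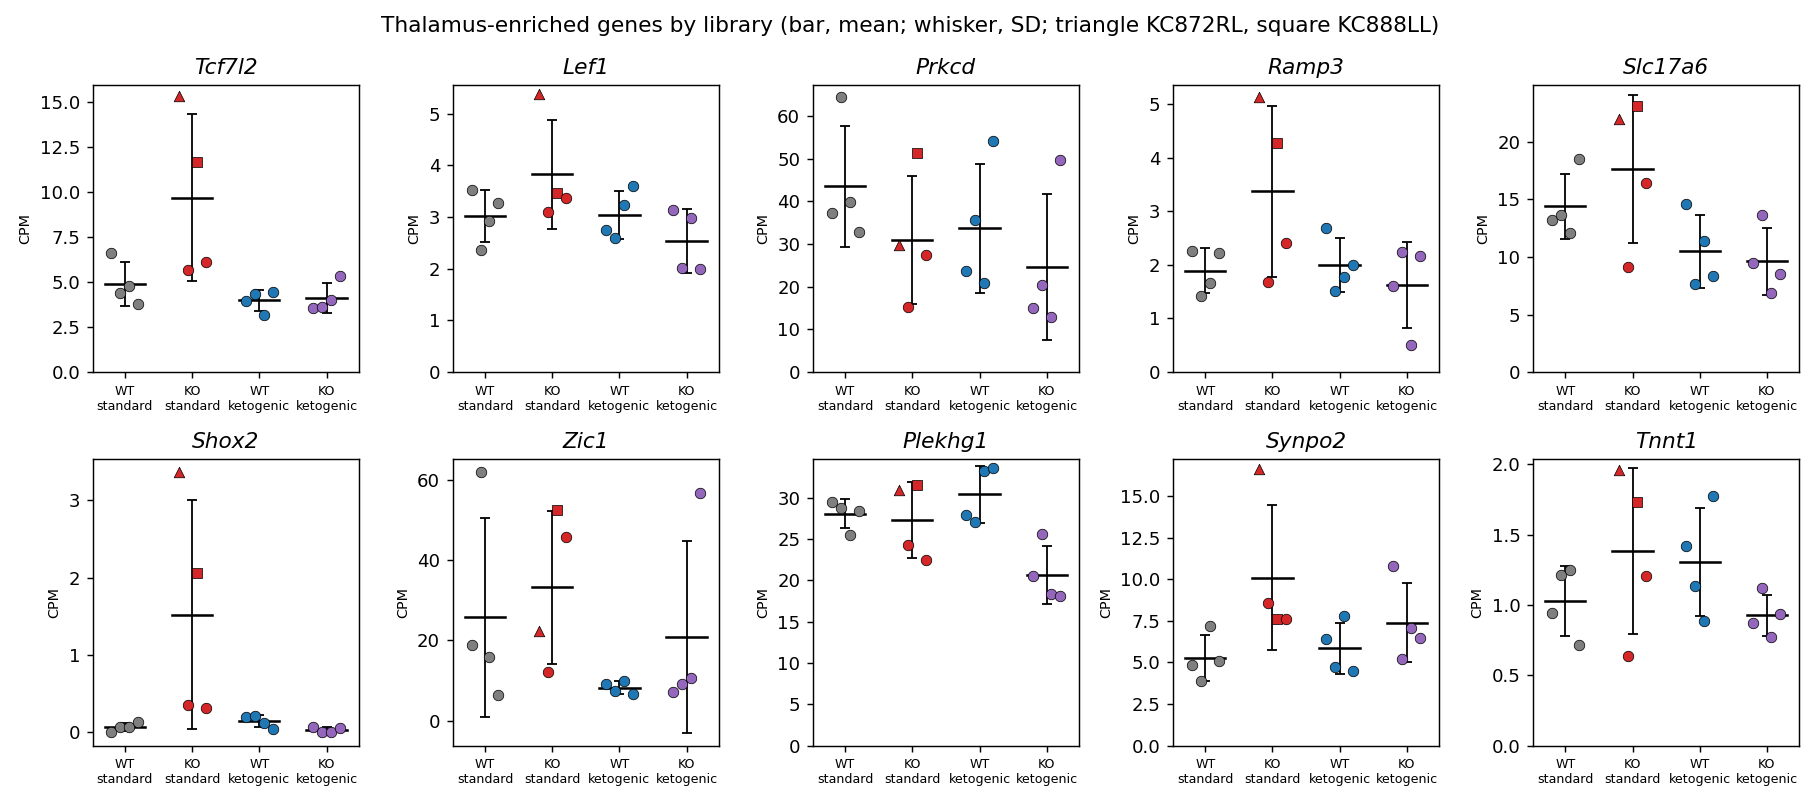
Level of each of the 10 genes in CPM (vertical axis) in the 4 groups (horizontal axis), with 1 point per library, a bar at the mean and whiskers of 1 SD. KC872RL (triangle) and KC888LL (square) lie above all other libraries for Tcf7l2, Ramp3, Slc17a6 and Shox2, and 4 libraries of 3 groups lie above the rest for Zic1.

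Under the standard diet the 10 genes summed to 128 ± 36.7 CPM in wild type, whereas the knockout had 139 ± 45.3 CPM (SD, n = 4 each). With the ketogenic diet wild type had 99.2 ± 13.3 CPM and the knockout had 92.4 ± 39.2 CPM (SD, n = 4 each). Single libraries ran from 64.0 CPM in KC934R to 189 CPM in KC888LL, and the ranges of all 4 groups overlapped. Prkcd, Plekhg1 and Zic1 weigh most in these sums, so genes are taken one by one below.

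Across the 5 contrasts, 1 result among the 9 tested genes was called, the lower Tcf7l2 under the ketogenic diet in the knockout. In knockout versus wild type under the standard diet 0 of the 9 genes were called, where 0.00572% of all tested genes were. That share turns on KC888LL, the library whose Kcna1 goes against its label: without it 5.73% of genes were called, again with 0 of the 9. At an unadjusted p under 0.05, 3 of the 9 were higher and 0 lower, and 7.64% of all tested genes were higher. The groups of 1 gene, Synpo2, did not overlap, the knockout being higher as for 2.97% of all tested genes. The median log2 fold change of the 9 genes was 0.37, and that of all tested genes was 0.0044. Some lists of other cell types also lay mostly above 0 in this contrast. Above 0 were 9 of 9 microglia genes (median 0.52) and 8 of 9 endothelial genes (0.28). So were 6 of 7 meninges genes (0.38) and 6 of 6 astrocyte genes (0.12). Oligodendrocyte genes went both ways, with 7 of 13 below 0 (median -0.0074), and 8 of 9 choroid plexus genes were below 0 (-0.20). None of these genes was called. The astrocyte sum was 4375 to 4884 CPM in wild type and 4535 to 6751 CPM in the knockout, highest of all 16 libraries in KC872RL. The part of these lists was not tested. DESeq2 called 1 of the 9, Tcf7l2 (adjusted p = 0.0487), among 0.967% of genes, and limma-voom called 0.

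The same comparison under the ketogenic diet gave 0 calls among the 9 genes, where 0.0172% of all tested genes were called. Plekhg1 was the single gene with an unadjusted p under 0.05, in the lower direction, which 3.97% of all tested genes had, and also the single gene whose groups did not overlap, the knockout being lower as for 1.98%. DESeq2 called Plekhg1 (adjusted p = 0.0121), among 0.258% of genes, and limma-voom called 0. The median log2 fold change of the 9 genes was -0.26 beside 0.0035 for all tested genes, with 6 of the 9 below 0. Also below 0 were 13 of 13 oligodendrocyte genes (median -0.40), 8 of 9 choroid plexus genes (-1.76) and 7 of 9 microglia genes (-0.10). Above 0 were 6 of 9 endothelial genes (0.10), 5 of 7 meninges genes (0.30) and 3 of 6 astrocyte genes (0.12). Of 5 genes of the thalamic reticular nucleus 4 were above 0 (median 2.39), from -0.06 for Pvalb to 6.53 ± 3.11 (SE) for Isl1. None of these genes was called, and the part of these lists was not tested.

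For the ketogenic against the standard diet in the knockout, 1 of the 9 genes was called, where 1.16% of all tested genes were. At an unadjusted p under 0.05, 5 of the 9 were lower and 0 higher, and 9.1% of all tested genes were lower. All 9 fitted log2 fold changes lay below 0, as did those of 48.5% of all tested genes, with a median of -0.60 for the 9 and 0.0069 for all. Several marker lists of other cell types lay mostly below 0 in this contrast too: 13 of 13 oligodendrocyte genes (median -0.86), 9 of 9 microglia genes (-0.74), 7 of 7 meninges genes (-0.47), 8 of 9 choroid plexus genes (-2.15), 7 of 9 endothelial genes (-0.15) and 4 of 6 astrocyte genes (-0.14). None of the microglia, meninges, choroid plexus and astrocyte genes was called. In the knockout the summed microglia level was 280 to 584 CPM with the standard diet and 252 to 271 CPM with the ketogenic diet. The choroid plexus sum was 57.0 to 589 CPM and 48.5 to 63.2 CPM. The endothelial sum was 276 to 329 CPM and 253 to 271 CPM, without overlap and highest of all libraries in KC872RL, and 1 endothelial gene, the glucose transporter gene Slc2a1, was called lower. Hippocampal lists lay mostly above 0: 5 of 5 CA3 genes (median 0.35), 4 of 5 CA1 genes (0.30) and 5 of 6 dentate granule cell genes (0.23), of which 0 were called. The part of these lists in the 9 genes' differences was not tested. The groups of 1 of the 9, Tcf7l2, did not overlap, the ketogenic diet being lower as for 3.72% of all tested genes. DESeq2 called Tcf7l2 and Slc17a6, among 3.88% of genes. Without KC888LL 1 of the 9, Tcf7l2, was called, where 6.18% of genes were. Without KC872RL and KC888LL, a choice made after seeing the data, 0 of the 9 were called, where 0.775% of all genes were.

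In wild type the diet gave 0 calls among the 9 genes, where 0.0114% of all tested genes were called. None of the 9 had an unadjusted p under 0.05, against 5.46% of all tested genes, and 0 had groups that did not overlap, against 4.88%. DESeq2 and limma-voom also called 0 of the 9. The median log2 fold change of the 9 was 0.01 and that of all tested genes was -0.00022. Below 0 were 13 of 13 oligodendrocyte genes (median -0.49), 8 of 9 choroid plexus genes (-0.55) and 6 of 7 meninges genes (-0.14). So were 7 of 9 microglia (-0.06), 4 of 6 astrocyte (-0.06) and 5 of 9 endothelial genes (-0.05). Above 0 were 6 of 6 dentate granule cell genes (0.22), 5 of 5 CA1 genes (0.14) and 3 of 5 CA3 genes (0.02). None of these genes was called, and the part of these lists was not tested.

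The interaction, which tests whether the diet difference depended on genotype, gave 0 calls among the 9 genes and among all tested genes (0%). At an unadjusted p under 0.05, 3 of the 9 were below 0 and 0 above, and 4.09% of all tested genes were below 0. The median of the 9 was -0.61, with 7 below 0 and 2 above, beside 0.0049 for all tested genes. Also below 0 were 9 of 9 microglia genes (median -0.67), 13 of 13 oligodendrocyte genes (-0.39) and 7 of 9 endothelial genes (-0.18). Above 0 were 5 of 5 CA3 genes (0.33) and 3 of 7 meninges genes (median -0.02). The part of these lists was not tested. DESeq2 and limma-voom called 0 of the 9. Adjusted p-values of the 9 genes ranged from 0.654 to 0.997 in edgeR. The diet difference in the knockout was therefore not shown to differ from that in wild type for any of them. The contrasts share libraries: the 4 knockout libraries under the standard diet enter knockout versus wild type on that diet with 1 sign and the diet in the knockout with the other.

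**Figure D2:**
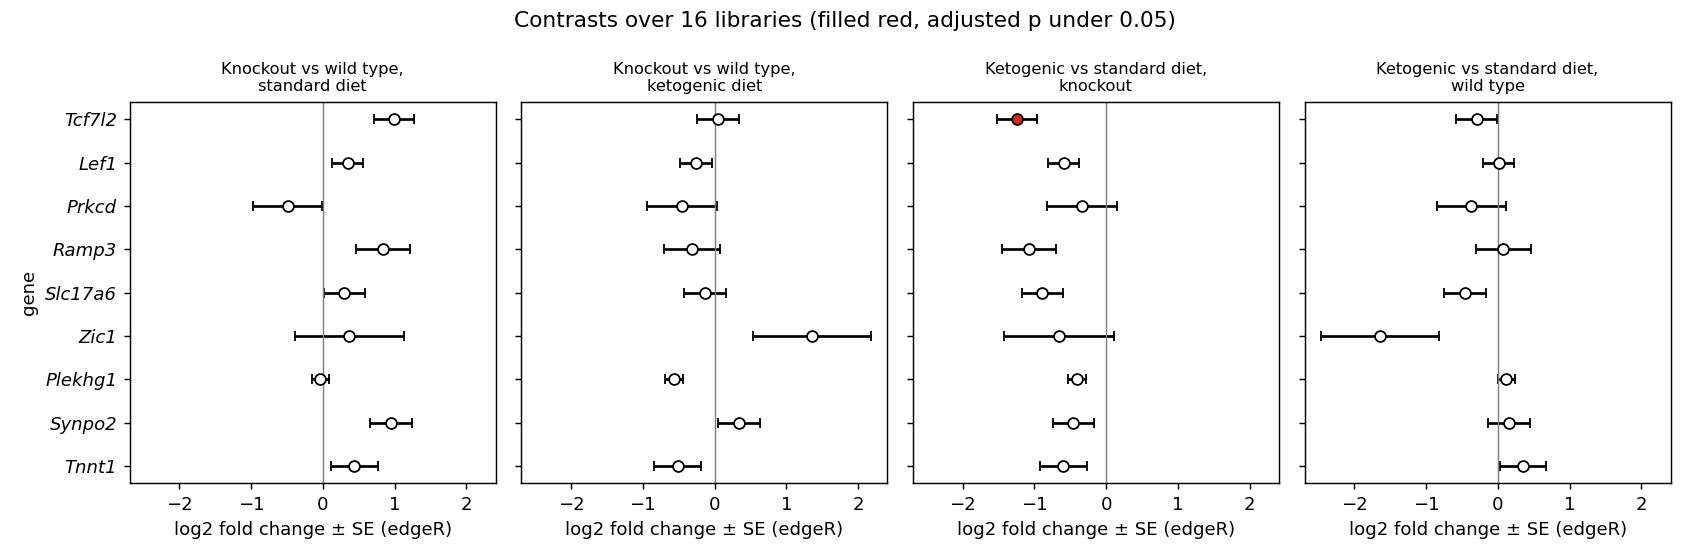
Fitted log2 fold change (horizontal axis, with bars of 1 SE from edgeR) of the 9 tested genes (vertical axis) in 4 contrasts over 16 libraries. The single filled red point is Tcf7l2 with the diet in the knockout at -1.24, and Zic1 has the widest bars in each panel.

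The transcription factors come first. Tcf7l2 (ENSMUSG00000024985, chr19:55741820-55933654, plus strand) encodes the Wnt effector that maintains thalamic neuron identity. In wild type under the standard diet its level was 6.60, 4.38, 4.80 and 3.79 CPM in KC890RL, KC894RLL, KC897RR and KC900RLL. In the knockout on that diet it was 15.3, 5.65, 11.7 and 6.09 CPM in KC872RL, KC873RR, KC888LL and KC893RL. Under the ketogenic diet the wild type libraries KC842L, KC843RL, KC844RR and KC846L held 3.96, 4.32, 3.18 and 4.46 CPM. There the knockout libraries KC913RR, KC916RRL, KC934R and KC935LL held 3.55, 3.59, 3.98 and 5.34 CPM. KC872RL and KC888LL thus stood above every other library, and the remaining 14 spanned 3.18 to 6.60 CPM with overlapping genotypes.

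Tcf7l2 fell with the ketogenic diet in the knockout, changing by -1.24 ± 0.28 (SE) on the log2 scale (adjusted p = 0.0418 in edgeR), and all 4 libraries on that diet lay below all 4 under the standard diet. The group means were 4.11 ± 0.843 CPM there and 9.69 ± 4.66 CPM under the standard diet (SD, n = 4). The call was lost in 9 of 18 alternatives, over which the adjusted p ranged from 0.00155 to 0.334. Without KC872RL the log2 fold change was -0.92 (adjusted p = 0.152), and without KC872RL and KC888LL it was -0.50 (adjusted p = 0.334). The call was also lost without KC913RR, KC916RRL or KC934R, with adjusted p of 0.117, 0.0916 and 0.0736. With 1 library left out at a time, the log2 fold change stayed between -1.42 (without KC873RR) and -0.92 (without KC872RL). With no low-count filter, limma-voom or only the groups compared the adjusted p was 0.0818, 0.0857 and 0.228. With log2 CPM of Xist, a marker of sex, as a covariate it was -1.05 (adjusted p = 0.251).

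Knockout exceeded wild type in mean Tcf7l2 under the standard diet by 0.99 ± 0.28 (SE) on the log2 scale, which was not called (edgeR, adjusted p = 0.201). Without KC872RL and KC888LL this value was 0.26 (adjusted p = 0.683). Under the ketogenic diet the genotypes differed by 0.05 ± 0.29 (SE), and the diet in wild type gave -0.29 ± 0.29 (SE), neither called. Ordered by mean, the 3 groups other than the knockout under the standard diet lay between 3.98 and 4.89 CPM, and no 2 of them differed by more than the larger SD of the pair.

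Oligodendrocyte genes moved with Tcf7l2 under the diet in the knockout. Of 13 listed oligodendrocyte genes 13 were below 0 in that contrast and 10 were called lower, with a median log2 fold change of -0.86, where 48.5% of all tested genes were below 0 and 1.16% were called. The summed level of the list ranged from 5377 to 5949 CPM in the knockout under the standard diet and from 2083 to 3901 CPM in the knockout under the ketogenic diet. None of the 13 was at 0 in all libraries. With the diet in wild type 13 of 13 were below 0 as well (median -0.49) and 0 were called, and the sums were 4320 to 6725 CPM with the standard diet and 3566 to 4543 CPM with the ketogenic diet. The oligodendrocyte sum was highest of all libraries in KC890RL, a wild type library under the standard diet, at 6725 CPM. Tcf7l2 was at 6.60 CPM there, rank 3 of 16, and at 3.79 to 6.60 CPM in that group. The part of these genes in the Tcf7l2 result was not tested. Among the 4 knockout libraries under the standard diet, the oligodendrocyte sum of KC872RL was 5502 CPM and that of KC888LL 5587 CPM. Bcas1 and Bmp4, which are made by differentiating oligodendrocytes, were highest in KC872RL at 315 and 15.5 CPM and were at 149 and 2.92 CPM in KC888LL.

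Lef1 (ENSMUSG00000027985, chr3:131110471-131224356, plus strand) encodes a partner of the same Wnt pathway that is kept in thalamic neurons after birth. It was at 3.52, 2.36, 2.92 and 3.27 CPM in wild type and at 5.38, 3.09, 3.46 and 3.36 CPM in the knockout under the standard diet, with libraries in the order given for Tcf7l2. The ketogenic-diet libraries had it at 2.74, 2.59, 3.24 and 3.60 CPM in wild type and at 3.14, 2.02, 2.98 and 2.00 CPM in the knockout. KC872RL was the highest library, KC888LL lay inside the range of the other 14, and the groups overlapped in every contrast. The diet in the knockout gave -0.59 ± 0.22 (SE), which was not called (edgeR, adjusted p = 0.178). The sum of 9 endothelial genes was also highest in KC872RL, at 329 CPM, and its part in the Lef1 level was not tested.

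Shox2 (ENSMUSG00000027833, chr3:66971727-66981771, minus strand) encodes a homeobox factor of thalamic relay neurons and separated the libraries more than any other of the 10 genes. It had 67, 6, 38 and 5 counts in KC872RL, KC873RR, KC888LL and KC893RL. All other libraries had between 0 and 4 counts, and 3 had 0, which allows up to 3 counts in each as a one-sided 95% limit. KC872RL and KC888LL held 105 of all its counts, or 78.9%, against 28 in the other 14 libraries. Scaled by total count its level was 3.48 CPM in KC872RL (two-sided 95% exact Poisson interval 2.70 to 4.42) and 2.06 CPM in KC888LL (1.46 to 2.83). The highest upper bound among the other 14 was 0.776 CPM, in KC873RR, so both intervals lay above those of all other libraries. Intervals and limits of this kind cover counting error only.

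Summed over the libraries of a group, Shox2 had 116 counts in the knockout under the standard diet, 4 in wild type on that diet, 11 in wild type and 2 in the knockout under the ketogenic diet. Adjusted for depth, the knockout under the standard diet was 25.0-fold above wild type (95% interval from counting 9.51 to 93.3) and 52.9-fold above the knockout under the ketogenic diet (14.3 to 442). These intervals do not cover the spread between libraries, of which 2 of the 4 held nearly all the counts. Shox2 was too low for the main filter. In the edgeR fit with no filter it was called higher in the knockout under the standard diet (log2 fold change 4.40, adjusted p = 0.0393), where 0.0543% of genes were called. In that fit it was also called lower with the diet in the knockout at -5.32 (adjusted p = 0.00482), where 0.697% of genes were. Fitted fold changes of so few counts depend on the fit's prior. Shox2 overlaps Rsrc1 on the other strand and the use of strand is not given in the sources used here, so reads of the 2 genes may be mixed. Rsrc1 itself was even, at 29.1 to 35.0 CPM.

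Zic1 (ENSMUSG00000032368, chr9:91358058-91365810, minus strand) encodes a zinc finger factor of dorsal and midline brain regions and divided the libraries along other lines. It was at 18.8, 62.0, 15.9 and 6.34 CPM in wild type under the standard diet and at 22.3, 12.2, 52.6 and 45.9 CPM in the knockout on that diet. With the ketogenic diet it was at 9.04, 7.45, 10.02 and 6.56 CPM in wild type and at 7.16, 9.05, 10.7 and 56.6 CPM in the knockout. KC894RLL, KC888LL, KC893RL and KC935LL stood at 45.9 CPM or above, and the next library, KC872RL, at 22.3 CPM. The high libraries came from 3 groups, and the groups overlapped in every contrast.

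No contrast of Zic1 was called. Its largest fitted values were -1.64 ± 0.82 (SE) for the diet in wild type (edgeR, adjusted p = 0.936) and 1.36 ± 0.82 (SE) for knockout versus wild type under the ketogenic diet (adjusted p = 0.635). Without KC894RLL the former was -0.73, and without KC935LL the latter was 0.13. Tests of this gene were imprecise, with group means of 25.7 ± 24.8 CPM in wild type under the standard diet and 20.9 ± 23.9 CPM in the knockout under the ketogenic diet (SD, n = 4). Wild type under the ketogenic diet was the even group, at 8.27 ± 1.55 CPM (SD, n = 4).

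Other genes marked the same 4 libraries as Zic1, all chosen after their values were seen. Zic4, a paralog that overlaps Zic1 on the opposite strand, was at 11.6, 10.7, 10.3 and 8.34 CPM in KC894RLL, KC888LL, KC893RL and KC935LL and at most at 4.87 CPM elsewhere. Reads of the overlapping ends cannot be assigned without strand. Zic2, which lies elsewhere in the genome, was at 19.6 CPM or above in those 4 libraries and at most at 14.8 CPM in the others. Isl1, which encodes a LIM homeobox factor, was at 0.920 to 2.41 CPM in the 4 and at most at 0.139 CPM in the other 12. Six3, which encodes a homeobox factor of the ventral forebrain, was at 1.14 to 2.42 CPM in the 4 and at most at 1.04 CPM in the others. Isl1 and Six3 are 2 of the 5 genes of the list for the thalamic reticular nucleus, with Ecel1, Spp1 and Pvalb, and the list's sum did not mark the same 4 libraries. It was 31.6 CPM in KC888LL, 33.3 in KC894RLL, 39.0 in KC935LL and 46.9 in KC893RL, whereas KC872RL had 78.9 CPM and KC873RR 48.4 CPM. The sum of 7 meninges genes was highest in KC893RL and KC894RLL, at 139 and 136 CPM, and was 109 CPM in KC888LL and 95.03 CPM in KC935LL, with 48.5 to 124 CPM in the other 12. Its part in the Zic1 levels was not tested. Shox2 was above 1 CPM in KC888LL alone of these 4. Thus KC888LL was high for both sets, KC872RL mainly for the set with Shox2, and KC894RLL and KC935LL mainly for the set with Zic1. KC893RL had rank 4 of 16 for Zic1 and also for Tcf7l2, Ramp3, Slc17a6 and Shox2, the last with 5 counts.

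**Figure D3:**
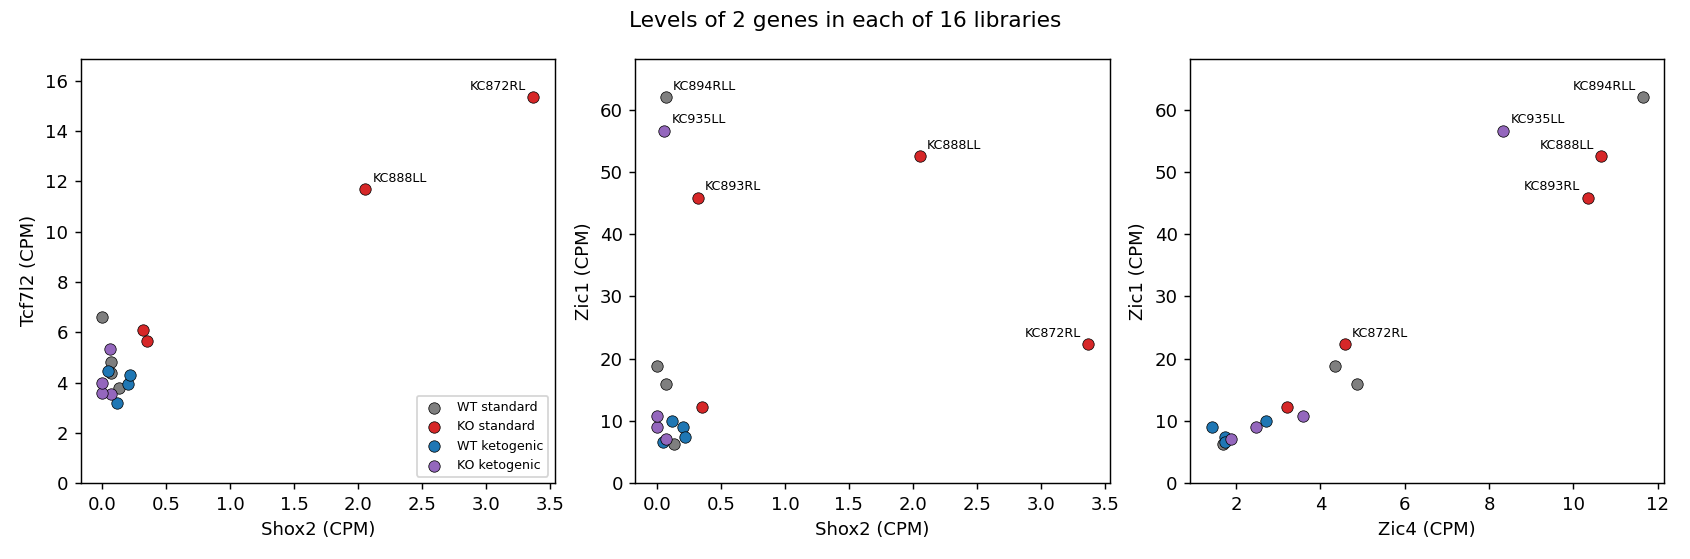
Levels in CPM of Tcf7l2 against Shox2 (left), Zic1 against Shox2 (middle) and Zic1 against Zic4 (right), with 1 point per library coloured by group. KC872RL and KC888LL are apart in the left panel, the 4 libraries with Zic1 at 45.9 CPM or above include KC888LL far along the Shox2 axis and 3 near its start in the middle panel, and Zic1 and Zic4 climb together in the right panel.

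Genes of transmission and signalling follow. Slc17a6 (ENSMUSG00000030500, chr7:51622006-51671119, plus strand) encodes VGLUT2, the vesicular glutamate transporter of thalamic and other subcortical neurons. It was at 13.3, 13.7, 12.1 and 18.6 CPM in wild type and at 22.0, 9.09, 23.1 and 16.4 CPM in the knockout under the standard diet. Under the ketogenic diet it was at 14.6, 7.66, 11.4 and 8.38 CPM in wild type and at 9.50, 13.7, 6.85 and 8.52 CPM in the knockout. KC888LL and KC872RL were the 2 highest libraries, and KC900RLL of the wild type came next.

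The difference of Slc17a6 with the diet in the knockout was -0.89 ± 0.29 (SE) and was not called by edgeR (adjusted p = 0.146), though DESeq2 called it (adjusted p = 0.0309). The adjusted p ranged from 0.0309 to 0.612 over 18 alternatives, and without KC872RL and KC888LL the value was -0.41 (adjusted p = 0.612). Knockout versus wild type under the standard diet gave 0.30 ± 0.28 (SE) (edgeR, adjusted p = 0.678), which turned to -0.18 without those libraries. The diet in wild type gave -0.46 ± 0.29 (SE) (adjusted p = 0.974).

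Ramp3 (ENSMUSG00000041046, chr11:6658521-6677475, plus strand) encodes an accessory protein that shapes calcitonin-family receptors at the cell surface. It was at 2.26, 1.41, 1.67 and 2.22 CPM in wild type and at 5.13, 1.69, 4.27 and 2.41 CPM in the knockout under the standard diet. The ketogenic-diet libraries had it at 2.69, 1.51, 1.77 and 2.00 CPM in wild type and at 1.61, 2.24, 0.497 and 2.17 CPM in the knockout. KC872RL and KC888LL were again above all others, and the lowest library, KC934R, had 9 counts.

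The diet in the knockout gave -1.08 ± 0.38 (SE) for Ramp3 (edgeR, adjusted p = 0.162) and -0.34 without KC872RL and KC888LL. Knockout versus wild type under the standard diet gave 0.84 ± 0.37 (SE) (adjusted p = 0.319) and 0.11 without them. Neither difference was called, and since these 2 libraries hold the highest Ramp3 levels, a smaller difference without them follows from the choice. Ramp3 and Slc17a6 were the most alike pair among the 9 tested genes, with a Pearson's r of log2 CPM of 0.782 over 16 libraries, and of 0.761 once group means were removed.

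Prkcd (ENSMUSG00000021948, chr14:30595354-30626210, minus strand) encodes protein kinase C delta and is a common marker of thalamic relay nuclei. It was at 37.2, 64.4, 39.8 and 32.9 CPM in wild type and at 29.7, 15.3, 51.4 and 27.4 CPM in the knockout under the standard diet. With the ketogenic diet it was at 23.7, 35.7, 20.9 and 54.2 CPM in wild type and at 15.1, 20.5, 12.8 and 49.8 CPM in the knockout. The highest libraries were KC894RLL, KC846L, KC888LL and KC935LL, 1 from each group, while KC872RL was near the middle.

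Prkcd differed from Tcf7l2, Ramp3 and Slc17a6 in which libraries were high, and its means ordered the groups differently. Under the standard diet wild type had a mean of 43.6 ± 14.2 CPM, where the knockout had 31.0 ± 15.0 CPM, and the ketogenic diet gave 33.6 ± 15.2 and 24.6 ± 17.1 CPM (SD, n = 4). No neighbours in that order differed by more than their SD, and no contrast was called. Knockout versus wild type gave -0.49 ± 0.48 (SE) under the standard diet (adjusted p = 0.692 in edgeR) and -0.45 ± 0.48 (SE) under the ketogenic diet (adjusted p = 0.806). With 1 library left out the former ranged from -0.85 (without KC888LL) to -0.24 (without KC894RLL), and the latter from -1.07 (without KC935LL) to -0.12 (without KC846L).

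The remaining genes encode cytoskeletal and signalling proteins. Plekhg1 (ENSMUSG00000040624, chr10:3740364-3967303, plus strand) was the evenest of the 10. It was at 29.5, 28.7, 25.5 and 28.4 CPM in wild type and at 31.0, 24.3, 31.5 and 22.5 CPM in the knockout under the standard diet. Under the ketogenic diet it was at 27.9, 27.0, 33.2 and 33.6 CPM in wild type and at 20.5, 25.6, 18.3 and 18.1 CPM in the knockout. Every knockout library under the ketogenic diet was below every wild type library on it.

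Plekhg1 differed between these groups by -0.56 ± 0.12 (SE) on the log2 scale, which edgeR did not call (adjusted p = 0.193). DESeq2 called it (adjusted p = 0.0121) and in edgeR without KC916RRL (-0.68, adjusted p = 0.0350, with 0.0733% of genes called). Over 17 alternatives its adjusted p ranged from 0.0121 to 0.699. In this comparison 13 of 13 oligodendrocyte genes (median -0.40) and 8 of 9 choroid plexus genes (-1.76) were also below 0, with 0 called. Endothelial genes lay mostly above 0, at 6 of 9 (0.10). The part of these lists in the Plekhg1 difference was not tested. KC872RL and KC888LL do not belong to this comparison. In the diet contrast in the knockout, which they do belong to, Plekhg1 was at -0.41 ± 0.12 (SE) (edgeR, adjusted p = 0.107) and at -0.18 without them. The interaction gave -0.53 ± 0.17 (SE) (adjusted p = 0.654).

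Synpo2 (ENSMUSG00000050315, chr3:123076519-123236149, minus strand) encodes synaptopodin 2, an actin-binding protein. It was at 4.84, 3.90, 7.16 and 5.10 CPM in wild type and at 16.6, 8.57, 7.63 and 7.61 CPM in the knockout under the standard diet. The ketogenic-diet libraries had it at 6.40, 4.75, 7.78 and 4.51 CPM in wild type and at 10.8, 5.23, 7.07 and 6.46 CPM in the knockout. KC872RL was far above the rest, and the other 3 knockout libraries under the standard diet were also above all 4 wild type libraries on it.

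The genotypes differed in Synpo2 under the standard diet by 0.95 ± 0.29 (SE), which was not called (edgeR, adjusted p = 0.202, range 0.0530 to 0.658 over 18 alternatives). Without KC872RL it was 0.60, and without KC872RL and KC888LL 0.63. Under the ketogenic diet the value was 0.34 ± 0.29 (SE) (adjusted p = 0.744), with overlapping groups. Synpo2 and Prkcd were the least alike pair of the 9, with a Pearson's r of -0.46 over 16 libraries.

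Tnnt1 (ENSMUSG00000064179, chr7:4504570-4516382, minus strand) encodes a troponin T of slow muscle that is also found in thalamic neurons. It lay between 0.641 CPM in KC873RR and 1.96 CPM in KC872RL. KC846L, KC888LL and KC842L followed KC872RL at 1.78, 1.73 and 1.42 CPM, so the high libraries included wild type under the ketogenic diet. The groups overlapped in every contrast and none was called, with -0.60 ± 0.33 (SE) for the diet in the knockout (edgeR, adjusted p = 0.372) and 0.0066 without KC872RL and KC888LL.

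**Figure D4:**
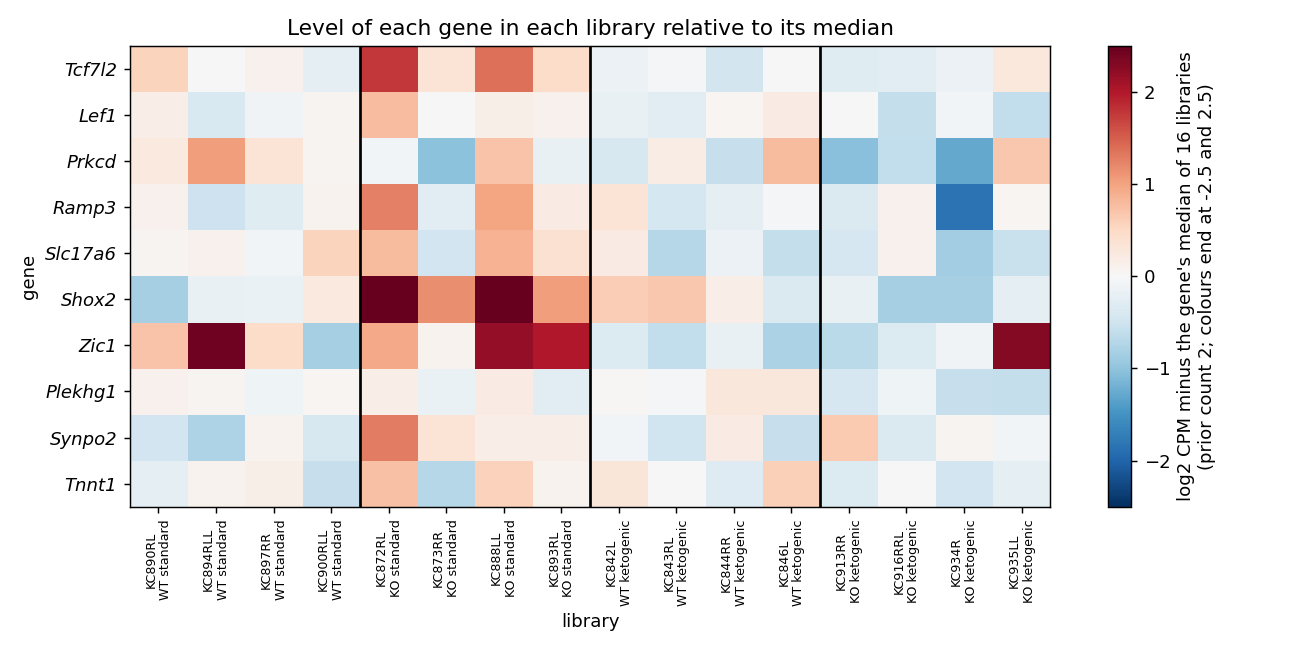
Colour gives log2 CPM of a gene (vertical axis) in a library (horizontal axis, by group) minus the gene's median over 16 libraries, with red above and blue below the median. KC872RL and KC888LL are red for most genes, Shox2 reaches 4.06 above its median in KC872RL, and the dark Zic1 cells fall in KC894RLL, KC888LL, KC893RL and KC935LL.

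Over the 36 pairs of the 9 tested genes, Pearson's r of log2 CPM across the 16 libraries had a median of 0.41 and ran from -0.46 to 0.78. It was above 0.5 for 13 pairs and below 0 for 5. With group means removed the median was 0.28. The points share libraries.

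KC872RL and KC888LL were the 2 highest libraries for Tcf7l2, Ramp3, Slc17a6 and Shox2, so leaving them out, a choice made after seeing the data, must lower the mean of their group for these genes. The values without them are therefore a description and no test. Leaving them out brought the log2 fold change between knockout and wild type under the standard diet closer to 0 for Tcf7l2, Lef1, Ramp3, Slc17a6, Zic1, Synpo2 and Tnnt1. It moved Prkcd from -0.49 to -1.03 and Plekhg1 from -0.04 to -0.26. For the diet in the knockout all 9 values moved closer to 0 without them, Prkcd and Tnnt1 to 0.21 and 0.0066 on the other side of it. The knockout group under the standard diet then held 2 libraries, and its spread was taken from the fit over all groups.

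**Figure D5:**
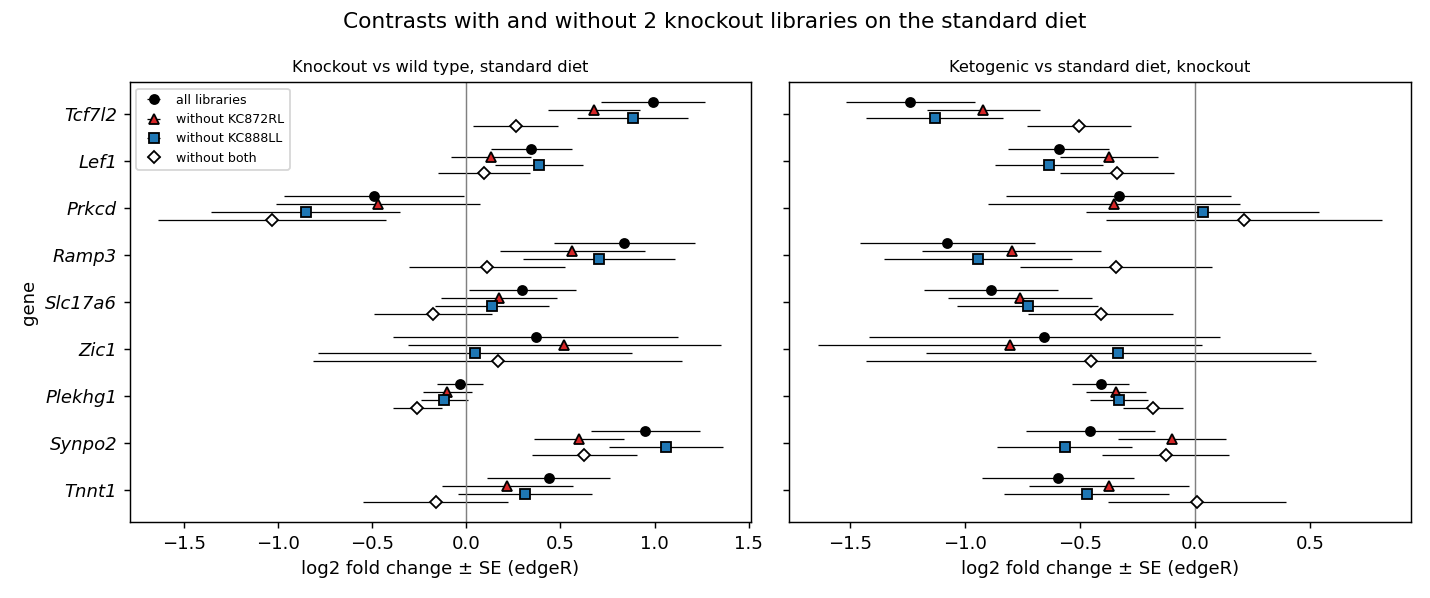
Fitted log2 fold change with bars of 1 SE (horizontal axis) of the 9 tested genes (vertical axis) between knockout and wild type under the standard diet (left) and between diets in the knockout (right). Values are given with all libraries, without KC872RL, without KC888LL and without both, and in the right panel every open diamond lies closer to 0 than its filled circle, which for the genes highest in these 2 libraries follows from leaving them out.

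The genes most like the 9 as a set, by Pearson's r of log2 CPM with their mean z-score over 16 libraries, were Chn2 (0.843), Gpr182 (0.790), Bcas1 (0.789), Gnb4 (0.787), Mb21d2 (0.777), Sptssa (0.768), Bmp4 (0.767) and Cmbl (0.761). All 8 were highest in KC872RL. Bcas1, a gene of newly formed oligodendrocytes, was at 315 CPM in KC872RL and between 60.1 and 174 CPM elsewhere. Bmp4, which encodes a secreted signal also made by differentiating oligodendrocytes, was at 15.5 CPM there and at most at 3.87 CPM elsewhere. Without KC888LL, the library with the largest sum, the 5 most alike were Kank1 (0.888), Chn2 (0.857), Bcas1 (0.852), Tacc3 (0.844) and Sirt2 (0.842) over 15 libraries, also highest in KC872RL. The sum of 9 listed microglial genes was 584 CPM in KC872RL, 579 CPM in KC873RR and 280 CPM in KC888LL. The part of glial genes in the level of the 9 was not tested.

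Other genes known for thalamic expression were examined by the same contrasts. Of 20 listed genes, chosen with earlier results of these data known, 19 were tested and edgeR called 0 in any of the 5 contrasts. At an unadjusted p under 0.05, 4 were higher and 3 lower in the knockout under the standard diet, where 7.64% of all tested genes were higher and 6.69% lower. In the knockout under the ketogenic diet 4 were higher and 0 lower, where 5.24% of all were higher and 3.97% lower. With the diet 4 were lower and 1 higher in the knockout, where 9.1% and 7.83% of all were. In wild type 7 were lower and 0 higher with the diet, where 3.01% and 2.44% of all were. In the interaction 1 was below and 2 above 0, where 4.09% and 3.38% of all were. DESeq2 called 3 of the 19, Rora, Rgs16 and Calb2, for the diet in the knockout, where it called 3.88% of genes, and 0 elsewhere, and limma-voom called 0. Their median log2 fold change was 0.26 and 0.24 for knockout versus wild type on the standard and ketogenic diets, -0.20 and -0.19 for the diet in the knockout and in wild type, and 0.06 for the interaction. Their summed level was 925 CPM in KC872RL and 949 CPM in KC888LL, beside 838 and 953 CPM in the other 2 libraries of that group, and it reached 994 CPM in KC913RR, a knockout library under the ketogenic diet. The sum is weighed most by Adarb1, Cacna1g and Ptpn3, with medians of 233, 118 and 107 CPM, and Cacna1g alone was at 269 CPM in KC913RR. Gene by gene, KC872RL was the highest of the 16 libraries for 5 of the 19 (Rora, Rgs16, Amotl1, Plcb4 and Cbln2) and KC888LL for 3 (Calb2, Foxp2 and Grid2ip). These 2 libraries were therefore highest for 8 of the 19, and the other 14 libraries for 11. Several of these genes are also expressed in the hippocampus itself.

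The 3 of the list most like the 9 genes were Plcb4 (Pearson's r 0.643), Rgs16 (0.620) and Rora (0.549), over 16 libraries. Plcb4 encodes a phospholipase C of thalamic neurons and was at 35.9 CPM in KC872RL, 32.6 CPM in KC888LL and 32.3 CPM in KC893RL. Rgs16, which encodes a regulator of G protein signalling, and Rora, which encodes an orphan nuclear receptor, were highest in KC872RL at 9.15 and 60.6 CPM. The nearest of these to a call was Rgs16 with the diet in the knockout, at -0.62 ± 0.15 (SE) (edgeR, adjusted p = 0.0550). Gbx2, a homeobox factor of the developing thalamus that failed the filter, had 26 counts in KC888LL, 5 in KC893RL, 4 in KC872RL and at most 2 in the other 13 libraries.

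Genes of other neighbouring tissues were read by their summed levels. The 5 listed genes of the thalamic reticular nucleus, all tested, were highest in KC872RL at 78.9 CPM, whereas KC888LL had 31.6 CPM and KC873RR, the next, 48.4 CPM. The 9 striatum genes summed to 166 CPM in KC872RL and 185 CPM in KC888LL, within the 154 to 247 CPM of all libraries. Of the 5 neocortex genes KC872RL had 134 CPM and KC888LL 139 CPM, within 130 to 194 CPM. The 7 meninges genes were at 115 and 109 CPM there, within 48.5 to 139 CPM. In KC872RL and KC873RR the reticular nucleus sum includes 22.1 and 13.1 CPM of Spp1, which reactive microglia also make, and these were the 2 libraries with the highest microglial sums, 584 and 579 CPM. In knockout versus wild type under the standard diet its 5 genes ranged from -0.18 for Six3 to 4.56 for Spp1, with Ecel1 at 1.70, Isl1 at 0.20 and Pvalb at 0.16, and 0 were called. The 7 listed medial habenula genes, of which 4 were tested, summed to 22.9 CPM in KC872RL, the lowest of the 16 libraries, and to 36.9 CPM in KC888LL, within the 33.4 to 49.4 CPM of the other groups. Nwd2 makes up most of this sum, at 14.5 CPM in KC872RL, its lowest library, whereas Gpr151 was at 4.07 CPM there, its second highest. In knockout versus wild type under the standard diet Gpr151 was at 1.29, Tac2 at 0.55, Chrna3 at -0.14 and Nwd2 at -0.80 on the log2 scale, with a median of 0.20 and 0 called, so these genes did not go one way. The 9 choroid plexus genes summed to 1117 CPM in KC894RLL, 1075 CPM in KC844RR and 589 CPM in KC893RL, with 389 CPM in KC872RL and 57.0 CPM in KC888LL. The latter therefore did not share the raised choroid plexus level of KC872RL.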

How the data were processed

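RNA sequencing libraries of mouse hippocampus were deposited by the authors as a single table of raw counts per gene. Build mm10 and DESeq2 are named in the submitters' processing notes. The aligner, counter, annotation and use of strand are not given in the sources used here. Columns carry a tag and a group, with 16 distinct tags for the 16 libraries, so each library is read as 1 animal and named by its tag. How the animals or samples were processed is not given in the sources used here, so p-values measure only the spread between these libraries, part of which may be technical.

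Of the 49315 gene identifiers 48970 were in GENCODE M21, from which positions (GRCm38) and exon lengths were taken. Genes were filtered with filterByExpr and fitted with edgeR 4.0.16 in R 4.3.3 (TMM, robust quasi-likelihood, 1 coefficient per group, all 16 libraries, 12 residual degrees of freedom). Tests were two-sided, with Benjamini-Hochberg adjustment over 17469 genes and a threshold of 0.05. The log2 CPM used a prior count of 2. Simulated data were drawn from the real means and depths, with 100 genes changed by 1 on the log2 scale and another 100 by 2. These changes were set between genotypes, alike in the knockout groups of both diets, so no diet difference was set. For knockout versus wild type under the standard diet 90 of the 100 genes changed by 1 were recovered. There 9 other genes were called, among 17260 genes tested. For the diet in the knockout, where no change was set, 0 of these 100 genes were called. Their median absolute fitted log2 fold change there was 0.07. Recovery of a change was therefore not tested for that contrast.

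The 10 genes and all lists were chosen with earlier results of these data known. Named outside them were the 8 genes of mean level of at least 1 CPM most correlated with the tested genes' mean z-score, the 5 most correlated without KC888LL, and the 3 most correlated of the other thalamic list. Promoters came from RefSeq. Alternatives were other size factors, filters, DESeq2 1.42.0, limma-voom (limma 3.58.1), no robust estimation, Xist as a covariate, only the groups compared and each library left out. The fit without KC872RL and KC888LL was added after seeing the data.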

Additional observations from a re-analysis of the deposited data

Results flagged for a closer look

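Single libraries stood far from the other 3 of their group, by the gap to the nearest library relative to the range of the group, in 4 of 44 tests. Chance gives about 1 in 20. Lef1 in the knockout under the standard diet was at 5.38 CPM in KC872RL and between 3.09 and 3.46 CPM in the others. Synpo2 in the same library was at 16.6 CPM, with the others between 7.61 and 8.57 CPM. Zic1 in the knockout under the ketogenic diet was at 56.6 CPM in KC935LL and between 7.16 and 10.7 CPM in the others. The summed level of the 10 genes in wild type under the ketogenic diet was 119 CPM in KC846L and between 92.4 and 92.6 CPM in the others.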

How the results depend on the processing

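No paired analysis was possible because the columns carry animal tags and no replicate number. Of the values of single genes under the alternatives, 593 kept direction and side of the threshold, 9 were no longer called, 4 became called and 20 changed sign. Counts of all genes called are given for the alternatives that moved them by over 1.5 times. For knockout versus wild type under the standard diet, called genes among the 10 were 0, and 1 with no filter or with DESeq2. All genes called there were 1, but 18 with no filter, 2 with at least 10 counts in every library, 169 with DESeq2, 2 with limma-voom, 2 with Xist, 0 with only the groups compared and 127 without KC872RL and KC888LL. For that comparison under the ketogenic diet, DESeq2 called 1 of the 10, and all genes called were 3, but 11 with no filter, 45 with DESeq2, 5 with limma-voom and 5 without robust estimation. For the diet in the knockout the 1 call among the 10 became 2 with DESeq2 and 0 with limma-voom, with Xist, with only the groups compared and without KC872RL and KC888LL. With no filter it stayed at 1, but the gene called was Shox2, and Tcf7l2 was not called. All genes called there were 202, but 677 with DESeq2, 7 with Xist and 9 with only the groups compared. For the diet in wild type they were 2, but 1 with upper-quartile factors, 12 with DESeq2, 0 with limma-voom, 0 without robust estimation, 1 with Xist and 11 with only the groups compared. For the interaction they were 0, but 2 with no filter and 7 with DESeq2. Leaving out Prkcd gave sums of 84.3 CPM in wild type under the standard diet and 65.5 CPM in wild type under the ketogenic diet. The cause of these shifts was not tested, except that Prkcd is part of the sum.

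Without KC872RL and KC888LL, signs changed for Slc17a6 (-0.18) and Tnnt1 (-0.16) between genotypes under the standard diet and for Prkcd (0.21) and Tnnt1 (0.0066) with the diet in the knockout, and with Xist for Lef1 with the diet in wild type (-0.021). With 1 library left out at a time, log2 fold changes that crossed 0 ranged from -0.12 to 0.050 for Plekhg1 between genotypes under the standard diet. Under the ketogenic diet they ranged from -0.35 to 0.067 for Slc17a6, from -0.10 to 0.12 for Tcf7l2 and from -0.50 to 0.0036 for Ramp3. With the diet they ranged from -0.95 to 0.032 for Prkcd in the knockout, and in wild type from -0.10 to 0.19 for Ramp3, -0.089 to 0.10 for Lef1 and -0.0074 to 0.34 for Synpo2. Calls among the 10 ranged from 0 to 0, 0 to 1, 0 to 1, 0 to 0 and 0 to 0 over the 5 contrasts in the order of the report. All genes called ranged from 0 to 1016 (without KC888LL), 1 to 13 (without KC916RRL), 28 (without KC872RL) to 1096 (without KC888LL), 0 to 3 and 0 to 0. Medians of the 9 genes ranged from 0.22 to 0.64, -0.35 to 0.0016, -0.83 to -0.38, -0.10 to 0.10 and -0.72 to -0.39. Sums of the 10 ranged from 110 to 137 and 122 to 158 CPM in wild type and knockout under the standard diet, and from 92.5 to 101 and 73.1 to 102 CPM under the ketogenic diet. Depth limits Shox2, whose 3 libraries at 0 allow up to 3 counts each.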
